A study of Mus musculus with 6 samples.

Results

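Ccnd1 and Ccnd2 encode D-type cyclins, Cdkn1a and Cdkn1b the cyclin-dependent kinase inhibitors p21 and p27, Ccng1 the p53-induced cyclin G1, and Gadd45b a stress-induced growth arrest protein. All probes that the platform annotation assigns to 1 of these 6 symbols were taken, which gave 7 of the 8734 probes on the array: 2 for Ccng1 and 1 for each other gene. All 6 genes had values on all 6 arrays and were among the 5644 named genes fitted, in 6807 rows, a row being the mean of the probes of 1 symbol on an array, or 1 probe where the annotation gives several symbols or none. The genes were selected on their transgenic ratios in an earlier look at these arrays, so those ratios are given as a description, without a test.

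Each of the 6 arrays set RNA of cultured tracheal airway smooth muscle cells from transgenic mice that overexpress the beta2-adrenergic receptor (2AR-OE, called transgenic below) directly against RNA of cells from nontransgenic (NTG) mice. RNA was taken at passages 8 to 10 from explant cultures started in medium with 20% fetal calf serum, and over 90% of such cells stained for smooth muscle actin, per the labels. The design asks how lasting receptor activity alters gene expression. The labels give neither the promoter of the transgene nor the age or number of the mice. The dye of the transgenic sample was Cy3 on 2C and 1C and Cy5 on the other 4 arrays. The number in an array's title divides them into set 2 (2A, 2B and 2C) and set 1 (1A, 1B and 1C), and what it stands for is not given. Nothing states that the arrays came from separate cultures, so errors and p-values reflect array-to-array scatter only, possibly of technical origin.

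D-type cyclins are made when cells receive mitogens. They bind Cdk4 or Cdk6, and the complex phosphorylates the retinoblastoma protein, which frees E2F factors to switch on genes of DNA synthesis. The inhibitors p21 and p27 bind cyclin and kinase together: they block Cdk2 complexes and can also help assemble those of the D-type cyclins. The tumour suppressor p53 induces Cdkn1a and Ccng1 when DNA is damaged. In airway smooth muscle, growth of the muscle layer is a feature of asthma, and agents that raise cyclic AMP, as the beta2 receptor does, are known to restrain proliferation and cyclin D1.

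The values are log2 ratios, and 1 unit is a 2-fold difference. The deposited labels do not state their direction. It is likely transgenic over nontransgenic, because transgenic RNA is in channel 1 of the arrays with the commoner dye order and is the test condition of the design; in the reverse case every sign below turns. The columns of 1C and 2C were taken as already turned to that direction, which the labels do not state either. If they were not, a ratio of equal sign in both dye orders is a dye bias of the probe, and the fitted transgenic ratios of the 6 genes become 0.14 for Ccnd1, 0.19 for Ccnd2, 0.08 for Cdkn1a, 0.11 for Cdkn1b, 0.02 for Ccng1 and 0.11 for Gadd45b. Over all probes, arrays of opposite dye order correlated with r of 0.00887 to 0.179 (8 pairs, described across probes), against 0.313 to 0.697 for the 7 pairs of the same order.

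Between 8495 and 8555 probes had a value on each array. Array 1C scattered most: 16.0% of its probes lay beyond 2-fold, against 2.97% to 7.57% on the other arrays. It also held 63 values at the floor of the table, a ratio of 0.01, against 0 to 10 on the others; none of the 7 probes was at the floor on any array. Ratios carry no level, so the labelled cell type could not be checked against its markers. Of 2 smooth muscle markers measured, Cnn1 was higher in transgenic cells (0.59 ± 0.10, adjusted p = 0.028 by limma with Benjamini-Hochberg adjustment) and Smtn stood at -0.05. Of 27 markers of 6 other cell types, 3 were higher and 1 was lower: the fibroblast genes Thy1 (2.73 ± 0.21) and Mfap5 (0.81 ± 0.07), the epithelial gene Cdh1 (0.32 ± 0.06) and the neural gene Uchl1 (-0.46 ± 0.09). At the same threshold, an adjusted p under 0.05, 4.03% of all rows were higher and 3.09% lower. Signs differed within the fibroblast list, 4 of 6 above 0 and 2 below (Col1a1 at -1.21 ± 0.31 and Pdgfra at -0.02 ± 0.14), and all 4 endothelial markers were below 0, from -0.84 to -0.02; none of these 6 passed. The part of these other cell types in the results below was not tested, and in bulk RNA fewer cells of a type and less RNA per cell cannot be told apart.

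Transgenic cells had lower ratios for both D-type cyclins, for the inhibitor p21 and for cyclin G1, and higher ratios for the inhibitor p27 and for Gadd45b. The sizes ran from 1.40-fold for Ccng1 to 2.45-fold for Ccnd1. Each gene kept 1 sign on all 6 arrays, so that all 36 values lay on the side of their fit. The choice of the genes on these ratios favours such agreement. Of the 6756 rows with 6 values, 19.7% had 1 sign throughout. All 6 passed the threshold of adjusted p under 0.05 that helped to choose them; 7.11% of the 6807 rows passed it, 4.03% higher and 3.09% lower.

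**Figure D1:**
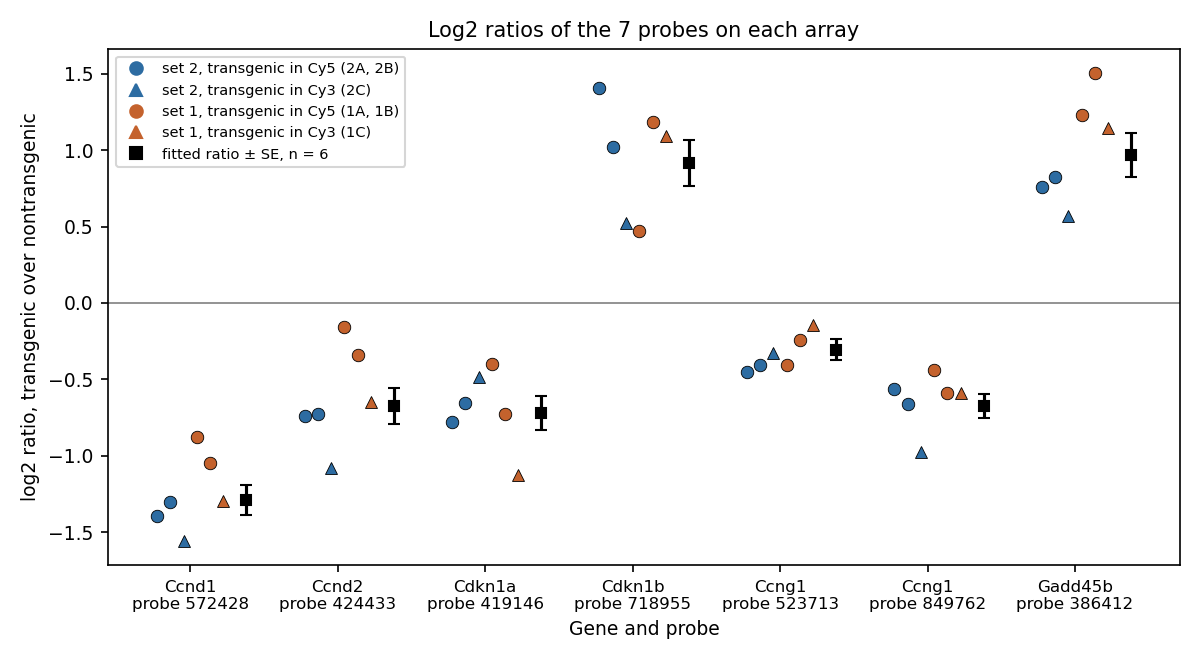
Log2 ratio, transgenic over nontransgenic (vertical axis), of the 7 probes (horizontal axis) on each array; circles have transgenic RNA in Cy5 and triangles in Cy3, blue is set 2 and orange set 1, and black squares are fitted ratios ± SE over n = 6 arrays. All points of Ccnd1, Ccnd2, Cdkn1a and Ccng1 lie below 0 and all points of Cdkn1b and Gadd45b above it, from -1.56 for Ccnd1 on 2C to 1.51 for Gadd45b on 1B.

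Ccnd1, cyclin D1 (probe 572428), had the lowest ratios of the group. They were -1.39, -1.30 and -1.56 on arrays 2A, 2B and 2C, and -0.87, -1.04 and -1.30 on arrays 1A, 1B and 1C. Array 1A was nearest to 0, array 2C farthest from it, and arrays 2B and 1C met at -1.30, where the sets touch. The fitted ratio was -1.29 ± 0.10 (SE of the limma fit, n = 6 arrays), or 2.45-fold lower, the 46th lowest of the 6807 rows. On single arrays between 0.279% and 4.11% of rows lay below it.

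Ccnd2, cyclin D2 (probe 424433), which pairs with the same kinases, had ratios of -0.74, -0.72 and -1.08 on arrays 2A, 2B and 2C, and of -0.16, -0.34 and -0.65 on arrays 1A, 1B and 1C. The set 2 ratios were all farther from 0 than the set 1 ratios, and the value on 1A was close to 0. The fitted ratio was -0.68 ± 0.12, or 1.60-fold lower. Its place within an array varied most of the 6 genes: 0.779% of rows lay below it on the array where it ranked lowest and 31.3% on the array where it ranked highest. Ccnd1 was below Ccnd2 on every array, by 0.48 to 0.72 (mean difference of log2 ratios, Ccnd1 minus Ccnd2, -0.63 ± 0.09, SD, n = 6), so the 2 ratios shifted together between arrays while their gap stayed within a narrow range.

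Cdkn1a, which encodes p21 (probe 419146), had ratios of -0.78, -0.66 and -0.48 on arrays 2A, 2B and 2C, and of -0.40, -0.73 and -1.12 on arrays 1A, 1B and 1C. The sets overlapped throughout, with both the nearest value to 0 and the farthest in set 1. The fitted ratio was -0.72 ± 0.11, or 1.65-fold lower. Cdkn1b, which encodes p27 (probe 718955), had ratios of 1.41, 1.02 and 0.52 on arrays 2A, 2B and 2C, and of 0.47, 1.18 and 1.10 on arrays 1A, 1B and 1C. Arrays 1A and 2C, 1 of each set and of each dye order, held its low values. The fitted ratio was 0.91 ± 0.15, or 1.88-fold higher, with the widest spread between arrays of the group (SD 0.374, against 0.104 for Ccng1). The inhibitors thus stood on opposite sides of 0: Cdkn1b exceeded Cdkn1a by 0.87 to 2.22 log2 units on the 6 arrays, with a median of 1.79.

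Ccng1, cyclin G1, a p53 target whose protein takes part in the control of p53 itself, was the gene with a pair of probes. Probe 523713 gave -0.45, -0.41 and -0.33 on arrays 2A, 2B and 2C, and -0.40, -0.24 and -0.14 on arrays 1A, 1B and 1C. Probe 849762 gave -0.57, -0.66 and -0.98 on arrays 2A, 2B and 2C, and -0.44, -0.59 and -0.59 on arrays 1A, 1B and 1C. Both probes were below 0 on every array, and probe 849762 was the lower one on 6 of 6. Probe 523713 averaged -0.33 ± 0.12 and probe 849762 averaged -0.64 ± 0.18 (SD, n = 6 each), a difference of 0.31 ± 0.22. The exact two-sided sign-flip permutation test over arrays gave p = 0.0313, the smallest that 6 arrays can give, for the 1 probe pair compared, and leaving out any array gave 0.0625, the smallest for 5. The mean of both probes had a fitted ratio of -0.49 ± 0.07, or 1.40-fold lower, while the probes fitted singly gave -0.31 ± 0.07 and -0.67 ± 0.08.

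Gadd45b (probe 386412) encodes a small protein of the Gadd45 family that binds cyclin-dependent kinase 1 and p21 and activates stress kinases. Its ratios were 0.76, 0.82 and 0.57 on arrays 2A, 2B and 2C, and 1.23, 1.51 and 1.14 on arrays 1A, 1B and 1C. The set 1 ratios were all above the set 2 ratios. The fitted ratio was 0.97 ± 0.14, or 1.96-fold higher, and 90.3% to 99.5% of rows lay below it on single arrays. Of the other Gadd45 genes, Gadd45g was measured and stood at 0.07 ± 0.08 (adjusted p = 0.57, limma).

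Ordered by fitted ratio, the genes ran from Ccnd1 through Cdkn1a, Ccnd2 and Ccng1 to Cdkn1b and Gadd45b. Ccnd1 lay below Cdkn1a on 6 of 6 arrays, by 0.18 to 1.08. The next neighbours did not keep their order: Cdkn1a was above Ccnd2 on 2 arrays and below it on the others (mean difference -0.08 ± 0.39, SD, n = 6), and Ccnd2 was above Ccng1 on 2 (mean difference -0.13 ± 0.25). Cdkn1b was likewise above Gadd45b on 2 arrays and below it on the others (mean difference -0.06 ± 0.47).

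**Figure D2:**
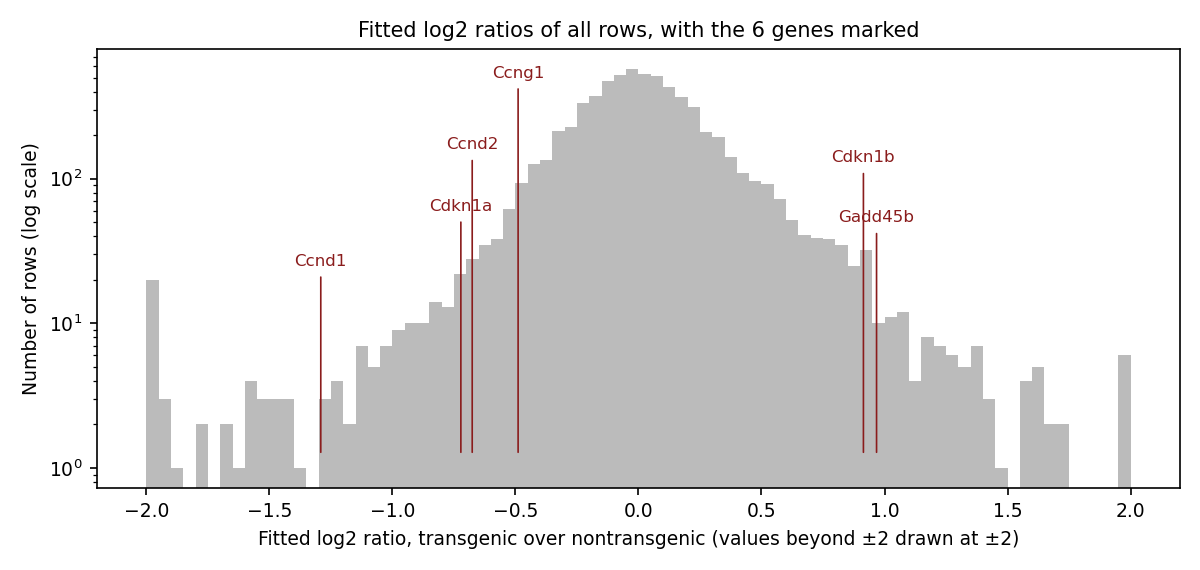
Number of rows (vertical axis, log scale) by fitted log2 ratio, transgenic over nontransgenic (horizontal axis), for all 6807 rows, with values beyond 2 on either side drawn at 2; the lines mark the 6 genes. Ccnd1 at -1.29 lies far out on the lower side, Ccng1 at -0.49 is nearest to the bulk, and Cdkn1b and Gadd45b lie close together at 0.91 and 0.97.

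Promoter sequence from RefSeq (GRCm38.p6) shows what lies upstream of the p53-induced genes with lower ratios and of the genes with higher ratios. Of the 6 genes, 4 matched a window, Cdkn1a with 2 annotated starts, and Ccnd1 and Ccnd2 did not. The 250 bases before the start are given 5′ to 3′ on the gene's strand, with matches to the p53 half-site consensus and to the CCAAT box (CCAAT, both strands) in capitals; no match overlaps another.
Cdkn1a, first start, chr17:29090729-29090978, plus strand: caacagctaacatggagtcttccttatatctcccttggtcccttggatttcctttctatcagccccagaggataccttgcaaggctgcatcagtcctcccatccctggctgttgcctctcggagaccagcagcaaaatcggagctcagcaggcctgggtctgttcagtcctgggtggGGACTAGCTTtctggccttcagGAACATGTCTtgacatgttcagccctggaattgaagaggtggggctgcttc
Ccng1, chr11:40755287-40755536, minus strand: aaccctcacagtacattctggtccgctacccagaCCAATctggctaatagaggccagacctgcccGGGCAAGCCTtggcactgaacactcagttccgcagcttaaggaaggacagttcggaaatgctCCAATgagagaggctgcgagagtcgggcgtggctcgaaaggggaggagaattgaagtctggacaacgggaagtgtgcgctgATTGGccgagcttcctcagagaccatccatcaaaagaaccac
Cdkn1b, chr6:134920151-134920400, plus strand: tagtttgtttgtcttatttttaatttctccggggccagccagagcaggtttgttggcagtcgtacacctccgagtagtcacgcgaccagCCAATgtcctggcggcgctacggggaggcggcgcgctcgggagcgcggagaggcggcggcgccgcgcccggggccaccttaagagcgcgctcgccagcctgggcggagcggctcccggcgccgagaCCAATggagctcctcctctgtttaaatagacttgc
Gadd45b, chr10:80929841-80930090, plus strand: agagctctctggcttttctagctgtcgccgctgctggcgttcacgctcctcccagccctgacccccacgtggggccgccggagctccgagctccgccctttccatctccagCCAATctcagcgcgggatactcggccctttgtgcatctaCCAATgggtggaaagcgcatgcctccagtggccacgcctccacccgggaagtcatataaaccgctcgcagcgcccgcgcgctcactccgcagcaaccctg

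The p53 half-site consensus matched in windows of the p53-induced genes Cdkn1a and Ccng1: at positions -73 and -51 of the first Cdkn1a window (first base of each match, counted back from the start) and at -185 of the Ccng1 window. The window of the second Cdkn1a start, not printed above, held no such match. Of all 32851 windows of this length, 7.13% hold such a match. CCAAT boxes lie in the Ccng1, Cdkn1b and Gadd45b windows, and in 33.8% of all windows. The cyclic AMP response element TGACGTCA and its shorter form TGACG (both strands, the shorter contained in the longer) matched in none of the windows of these 4 genes; 1.55% and 17.8% of all windows hold them. A match is a description of these letters and not a site, and nothing in the arrays bears on binding.

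The dye comparison, which did not enter the choice of genes, asked whether the ratios depended on which dye transgenic RNA carried. None of the 6 genes passed (limma adjusted p from 0.416 for Ccnd2 to 0.891 for Ccng1), and 0 of 6 had an unadjusted p under 0.05. The mean ratio with transgenic RNA in Cy5 (4 arrays) and in Cy3 (2 arrays) was -1.15 and -1.43 for Ccnd1, -0.49 and -0.86 for Ccnd2, -0.64 and -0.80 for Cdkn1a, 1.02 and 0.81 for Cdkn1b, -0.47 and -0.51 for Ccng1, and 1.08 and 0.86 for Gadd45b. For each gene the ranges of the orders overlapped; they stood apart in 31.5% of rows with 6 values. Of all rows, 0.0147% passed for dye and 18.2% had an unadjusted p under 0.05. A p above the threshold does not show that the orders gave equal ratios.

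A further comparison set the ratios of set 2 against those of set 1. Ccnd1 and Ccnd2 were farther below 0 in set 2, and Gadd45b was nearer to 0 there. Ccnd1 averaged -1.42 in set 2 and -1.07 in set 1 (difference of set 2 minus set 1 in the fit, -0.34 ± 0.10, adjusted p = 0.129 by limma). Ccnd2 averaged -0.85 in set 2 and -0.38 in set 1 (-0.47 ± 0.09, adjusted p = 0.0798 by limma). Gadd45b averaged 0.72 in set 2 and 1.29 in set 1 (-0.58 ± 0.11, adjusted p = 0.0769 by limma). The differences for Ccng1 (-0.16 ± 0.09), Cdkn1a (0.11 ± 0.21) and Cdkn1b (0.06 ± 0.31) had adjusted p of 0.321, 0.779 and 0.916. By limma none of the 6 genes passed, and 0% of all rows did. Ccnd1, Ccnd2 and Gadd45b had an unadjusted p under 0.05, as did 23.7% of all rows. The sizes depended on the scaling: with arrays scaled to 1 spread, the difference was -0.83 for Ccnd1, -0.73 for Ccnd2 and -0.24 for Gadd45b (limma adjusted p of 0.0617, 0.0605 and 0.263). It was -0.34 for Ccng1 and 0.42 for Cdkn1b, and for Cdkn1a it changed sign to -0.17 (limma adjusted p of 0.16, 0.348 and 0.477). In 4 of the 6 genes, Ccnd1, Ccnd2, Gadd45b and Ccng1, the sets did not overlap, which held for 25.2% of rows with 6 values. For Ccng1 this was so for the mean of its probes only, and on each probe alone the sets overlapped. For Ccnd1 the sets all but met, at -1.2993 on array 2B and -1.2992 on array 1C.

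Within single sets, each with 3 arrays and fitted with the dye term, all 6 genes kept their side. This follows from the single values, of which all 36 lay on the side of their fit, and is no further evidence. Ccnd1 was at -1.45 in set 2 and -1.13 in set 1, and Ccnd2 at -0.90 in set 2 and -0.45 in set 1. Cdkn1a was at -0.60 in set 2 and -0.84 in set 1, and Ccng1 at -0.59 in set 2 and -0.39 in set 1. Cdkn1b was at 0.87 in set 2 and 0.96 in set 1, and Gadd45b at 0.68 in set 2 and 1.26 in set 1.

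**Figure D3:**
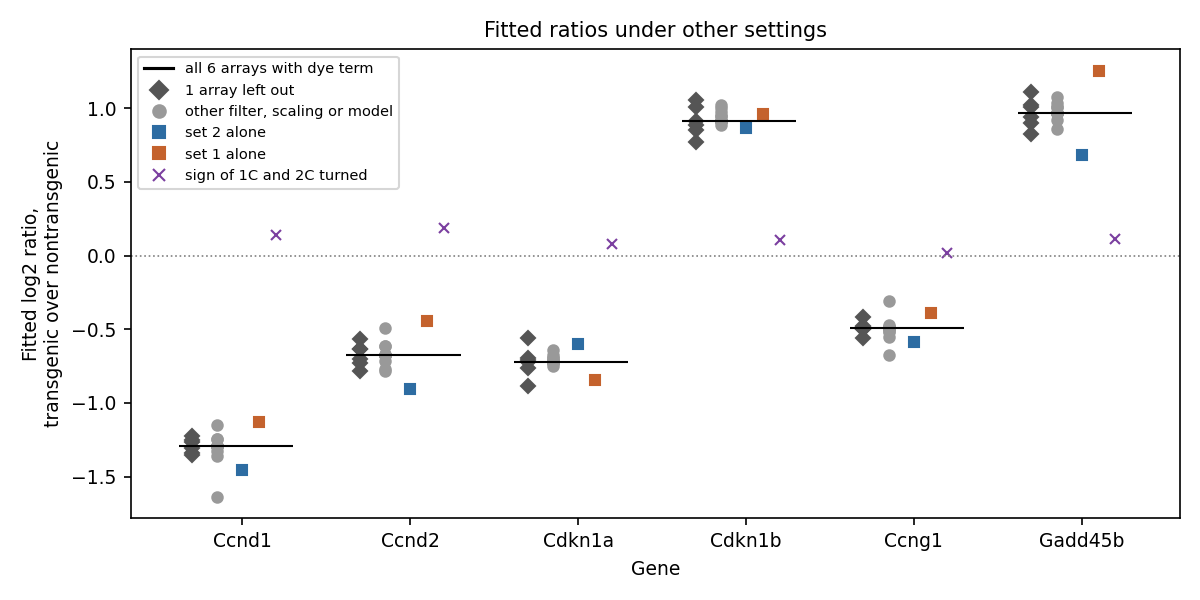
Fitted log2 ratio, transgenic over nontransgenic (vertical axis), of the 6 genes (horizontal axis) under the other settings; black lines are the fit over 6 arrays with the dye term, diamonds leave out 1 array, blue and orange squares are set 2 and set 1 alone, grey circles are other filters, scalings or models, and crosses have the sign of arrays 1C and 2C turned. Apart from the crosses, which lie between 0.02 and 0.19, the points of each gene stay on 1 side of 0. For fits of the deposited ratios this follows from their equal signs on all 6 arrays.

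The partners of these genes in cell cycle entry had ratios on both sides of 0 and did not pass the test over the 6 arrays. Of 19 measured genes of the cyclin-CDK-Rb-E2F core, 2 other CDK inhibitors, 12 p53 targets and growth arrest genes and 11 upstream regulators of cyclin D and p27, none of the 44 passed the threshold by limma (lowest adjusted p = 0.0687), against 7.11% of all rows. At an unadjusted p under 0.05 there were 15, of which 5 were higher and 10 lower, a share of 34.1% beside 27.7% of all rows. Their median fitted ratio was -0.04, beside 0.00176 over all rows, and their median size regardless of sign was 0.196, beside 0.173. Each lay within 2-fold. These lists were drawn up with earlier results of these data known. The count of 0 depended on the arrays and the model. Without array 2C, 4 of the 44 passed as higher (E2f1, E2f2, Tfdp2 and Trp53inp1), and without array 1A, Crem did. Akt2 passed with floor values missing or probes fitted singly, Cdc25a with quantile normalization or probes fitted singly, and Cdk6 with probes fitted singly. In fits added after seeing the data, 9 of the 44 passed in set 2 alone, of which 2 were higher (Btg2 and Crem) and 7 lower (Btg3, Cdk2, Trp53inp1, Skp2, Tfdp1, Ei24 and Ccne2). In set 1 alone 3 passed as higher (E2f2, Tfdp2 and Trp53inp1), and with the set as a fixed term 5 passed as lower (Ctnnb1, Btg3, Lef1, Skp2 and Ccne2). Trp53inp1 took opposite signs in these fits: -0.46 in set 2 alone, 1.66 in set 1 alone, and -0.49 on the 4 Cy5 arrays, where it also passed.

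Among the kinase partners, Cdk6 stood at -0.05 ± 0.08 and Cdk2, the kinase that p21 and p27 block, at -0.24 ± 0.10. The E-type cyclins that act with Cdk2, Ccne1 and Ccne2, stood at -0.24 ± 0.07 and -0.31 ± 0.13, and Rb1, the retinoblastoma gene, at -0.15 ± 0.07. E2f1, a factor that the retinoblastoma protein holds back, stood at 0.51 ± 0.16, with a ratio of 1.35 on array 1C and -0.11 to 0.37 on the others; without array 1C it was at 0.23. Tfdp2, a partner of E2F factors, stood at 0.59 ± 0.26, with a ratio of 2.03 on array 1C and -0.01 to 0.36 on the others; without array 1C it was at 0.08. Cdk2 was at -0.08 and Ccne2 at -0.16 without array 2C, and Cdk2 was at -0.40 without array 1C. None of these genes passed (limma adjusted p from 0.104 for Ccne1 to 0.743 for Cdk6).

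Of the regulators, Skp2, which targets p27 for degradation, stood at -0.28 ± 0.10, and Myc, a transcription factor that promotes cell cycle entry, at -0.23 ± 0.07. The mean ratio of Myc was 0.0068 with transgenic RNA in Cy5 and -0.46 in Cy3. Its orders did not overlap, as in 31.5% of rows with 6 values. Ctnnb1, beta-catenin, a coactivator of Ccnd1 transcription, had the lowest adjusted p of the 4 lists at -0.34 ± 0.08 (adjusted p = 0.0687, limma). Foxo1, a forkhead factor that can induce Cdkn1b, stood at -0.06 ± 0.13, an average of opposite signs. Foxo1 was below 0 on every Cy5 array (mean -0.35) and above 0 on every Cy3 array (mean 0.24), with an adjusted p for dye of 0.282 by limma. The cyclic AMP-responsive factors Creb1 and Crem stood at -0.26 ± 0.17 and 0.60 ± 0.25, and Crem was below 0 on array 1A alone. Creb1 had a ratio of -1.28 on array 1B and -0.35 to 0.17 on the others, and without array 1B it was at -0.14.

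Of the p53 group, Mdm2, the ubiquitin ligase of p53 and itself a p53 target, stood at -0.20 ± 0.08 and Btg2, an antiproliferative p53 target, at 0.48 ± 0.17. Btg2 had a ratio of 1.35 on array 1A and of 0.21 to 0.53 on the others. Sesn1 and Sesn2, stress-induced sestrins, stood at 0.02 ± 0.11 and -0.16 ± 0.06. Sesn1 was above 0 on every array of set 2 (mean 0.25) and below 0 on every array of set 1 (mean -0.18). Sesn2 averaged -0.07 with transgenic RNA in Cy5 and -0.25 in Cy3, and the orders did not overlap. Trp53inp1 stood at 0.60 ± 0.57, from a ratio of 3.95 on array 1C and of -0.86 to -0.30 on the others, and without array 1C it was at -0.53. Mdm2 was at -0.10 without array 1C. Of the 12 measured p53 targets and growth arrest genes, 6 had fitted ratios above 0, Trp53inp1 among them, and 6 below. The other CDK inhibitors Cdkn2c and Cdkn2d, which bind Cdk4 and Cdk6 directly, stood at -0.32 ± 0.14 and 0.12 ± 0.06.

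Downstream, 14 of the 15 measured genes of S phase and mitosis had ratios below 0, with a median of -0.31, beside 49.7% of all rows below 0. The 4 genes that passed were all lower, 26.7% of the list, beside 3.09% of all rows called lower. This list too was drawn up with earlier results of these data known, so the shares of all rows are no fair baseline. The MCM helicase genes Mcm5, Mcm2 and Mcm4, needed to unwind DNA for replication, and Mad2l1, a spindle checkpoint gene, were lower (-0.69 ± 0.11, -0.45 ± 0.08, -0.41 ± 0.08 and -0.63 ± 0.09, limma adjusted p from 0.0181 to 0.0364). None of these 4 genes passed when the set was a random block, or without array 2A, 2B or 1C. Mad2l1 alone of them passed without 1A or 1B, without the dye term, or on the 4 Cy5 arrays. The mean ratios in Cy5 and in Cy3 were -0.28 and -1.10 for Mcm5, and -0.25 and -0.66 for Mcm2. They were -0.24 and -0.57 for Mcm4, and -0.55 and -0.71 for Mad2l1. The orders did not overlap for Mcm5, Mcm2 and Mcm4, as in 31.5% of rows with 6 values. For dye none of the 4 passed (limma adjusted p from 0.19 to 0.657).

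**Figure D4:**
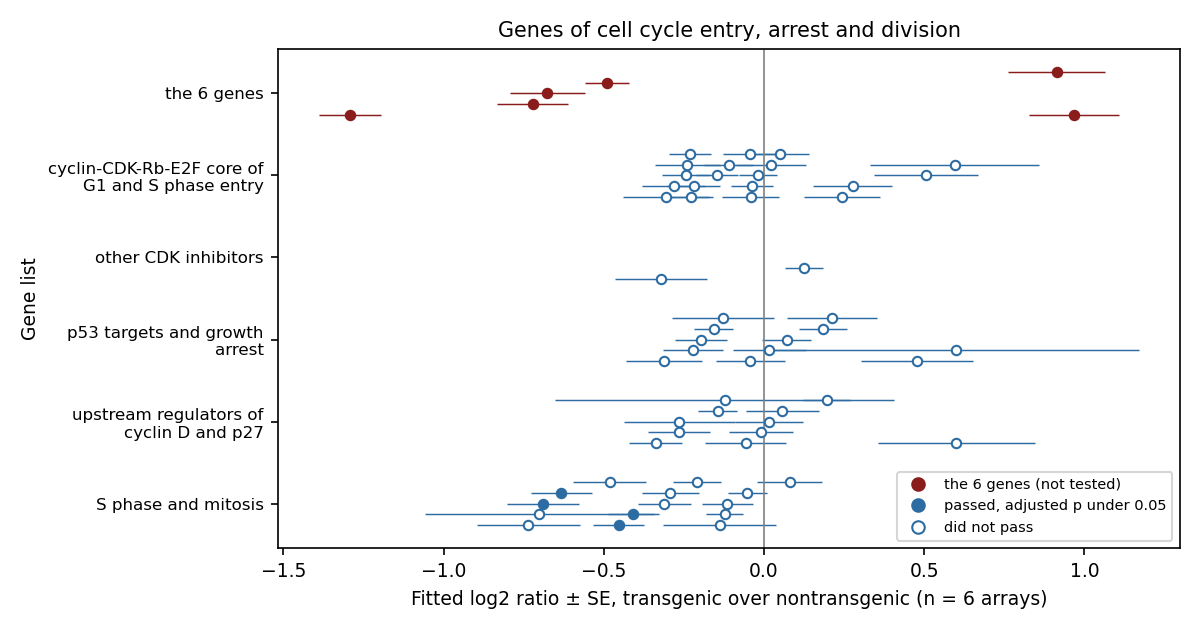
Fitted log2 ratio ± SE over n = 6 arrays, transgenic over nontransgenic (horizontal axis), of the 6 genes (red, not tested) and of the measured genes of 5 gene lists (rows); filled blue points passed an adjusted p of 0.05 and open points did not. The 44 genes of the middle lists lie between -0.34 and 0.60, inside the range of the 6 genes, and the 4 filled points all belong to S phase and mitosis.

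The 2 nearest neighbours of each gene were taken by Euclidean distance over the log2 ratios of the 6 arrays, among 5608 other named genes with 6 values. A likeness to the gene across arrays or sets follows from that choice. Ccnd1 lay nearest to Col3a1, a fibrillar collagen (distance 0.565), and Tm4sf1, a membrane protein (0.678). Ccnd2 lay nearest to Slc25a23, a mitochondrial carrier (0.221), and Ets1, a transcription factor (0.223). Both neighbours of Ccnd2 had the same division between sets: Ets1 was at -0.76, -0.79 and -0.91 on arrays 2A, 2B and 2C, and at -0.23, -0.32 and -0.74 on arrays 1A, 1B and 1C. Cdkn1a lay nearest to Pxn, the focal adhesion protein paxillin (0.427), and Tmem37 (0.427), and Cdkn1b to Setbp1 (0.685) and Phyh, a peroxisomal enzyme of fatty acid breakdown (0.699).

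Ccng1 lay nearest to Cdh2, N-cadherin (0.166), and Btbd11 (0.193), and Gadd45b to Rab9, a GTPase of late endosomes (0.305), and Ctsl, the lysosomal protease cathepsin L (0.34). Ctsl was at 0.64, 0.75 and 0.43 on arrays 2A, 2B and 2C, and at 1.47, 1.40 and 1.07 on arrays 1A, 1B and 1C, so that its set 1 ratios were all above its set 2 ratios, like those of Gadd45b. The neighbours of Cdkn1b lay farther off than those of Ccnd2, Ccng1 or Gadd45b.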

How the data were processed

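Per the labels' protocols, the authors reverse transcribed RNA, labelled it with Cy3 or Cy5 and hybridised it competitively to printed slides. The deposited values are log2 ratios, 1 for each probe on each array. Array medians lie between -0.00125 and 0.0007, so the values were already centred. No source used here gives the scanner, background correction, normalization or direction. Without spot intensities, precision could be judged only from the scatter between arrays. Each array counted as 1 replicate.

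Probes were named by the platform annotation (7540 with 1 symbol, 14 with several, 1180 with none). No gene coordinates are given, because that annotation names no genome build. Probes of a symbol were averaged, and a row was kept if it had 4 or more array values spanning both dye orders. limma 3.58.1 in R 4.3.3 (lmFit, eBayes) fitted a transgenic and a dye term over 6 arrays, and a set term for the set comparison; p-values were adjusted by Benjamini-Hochberg over all rows, with a threshold of 0.05. The script was tested on simulated data. Figures used matplotlib 3.10.9 in Python 3.11.15. The members and lists were chosen with earlier results of these data known. Named genes are the 6 genes, list genes that passed, the 3 largest in size that did not pass, and the 2 nearest neighbours of each gene; the other list genes given with values were chosen for their known roles, after the values were seen. Alternatives were other filters, scalings and models, single sets and each array left out. The check of the transgene is not reported here.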

Additional observations from a re-analysis of the deposited data

Results flagged for a closer look

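None of the 6 genes had an array that stood apart by Dixon's test, either among all 6 arrays or among the 4 with transgenic RNA in Cy5. Dixon's test was run on 27 results, in 54 groups of arrays, and gave 4 such values. These results were the 6 genes, the list genes that passed, those picked for large ratios without passing, the neighbours and the Ccng1 probes. Chance flags about 1 group in 20, but this rate is no fair baseline. All 4 values came from genes picked for large ratios, and the groups of 4 arrays lie within those of 6. Other list genes, such as Btg2 (1.35 on array 1A), E2f1 (1.35 on 1C) and Creb1 (-1.28 on 1B), were not examined. Trp53inp1 stood at 3.9452 on array 1C, far above the other arrays, and at -0.8555 on array 1B, far below the other arrays with transgenic RNA in Cy5. Tfdp2 stood at 2.0286 on array 1C, far above the others. Crem stood at -0.8137 on array 1A, far below the others.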

How the results depend on the processing

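With 1 array left out, the fitted ratio ranged from -1.36 to -1.23 for Ccnd1, -0.78 to -0.57 for Ccnd2, -0.88 to -0.56 for Cdkn1a, 0.77 to 1.06 for Cdkn1b, -0.56 to -0.42 for Ccng1 and 0.82 to 1.11 for Gadd45b. With the sign of arrays 1C and 2C turned, the ratios were 0.14 for Ccnd1, 0.19 for Ccnd2, 0.0815 for Cdkn1a, 0.0197 for Ccng1, 0.11 for Cdkn1b and 0.11 for Gadd45b, and 1 row passed; by construction this fit exchanges the transgenic and dye terms. Ccnd1 moved to -1.64 under quantile normalization, and Ccng1 to -0.31 and -0.67 with its probes fitted singly. All other settings left each gene within 1 SD of its value. Some of them could not move the ratios: missing floor values, other filters, robust eBayes and a fixed set term return the same ratio by construction. The replicate block (set as a random block, estimated correlation 0.295) left the 6 ratios as they were, with Ccnd1 at -1.29, while 197 rows passed in place of 484. The count was 1071 on the 4 Cy5 arrays, 194 with array weights, 0 with each set averaged to 1 value (920 at an unadjusted p under 0.05), and 169 to 1689 with 1 array left out. Chosen after seeing the data, it was 1057 in set 1 alone, 907 in set 2 alone and 1168 with the set as a fixed term. Of the genes in the 5 lists, 4 were called lower; the count was 1 without the dye term, 2 on the Cy5 arrays, 2 with array weights, 0 with the sign turned, with the block and with set means, 13 in set 2 alone, 2 in set 1 alone, 10 with the set as a fixed term, and 0 to 6 with 1 array left out. Called higher were 0, against 1 with floor values missing or probes fitted singly, 2 in set 2 alone, 3 in set 1 alone, and 0 to 4 with 1 array left out. For dye 1 row passed, 0 with floor values missing and 1 to 987 with 1 array left out. For the sets 0 rows passed, and 3 under scale normalization. The difference between the Ccng1 probes was 0.24 to 0.36 with 1 array left out. The causes were not tested.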
